A study of Mus musculus with 19 samples.

Results

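Prg4, Cilp, Clu, Erg, Has2, Cd44, Osr1 and Osr2 are genes of the joint surface and of the synovium, the tissue that lines a joint. They were taken by name, as every probe set that the platform annotation assigns to 1 of these symbols alone, and their levels were read on all 19 arrays of the series. The 8 genes were measured by 17 of the 45101 probe sets on the array and stood among 18193 genes with a symbol. Each gene was read from its probe set with the highest mean, and the other probe sets are described after the main results.

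The series profiled skeletal cells of wild-type mice at postnatal day 3, sorted with antibodies after collagenase digestion of both limb pairs, and the protocol calls the mice GFP-labeled. All 18 neonatal arrays came from cells without CD45, Ter119 and Tie2 and with integrin alpha V, and each tissue sample was a pooled litter. The 6 populations, with 3 arrays each, were 2 that carry Thy (Thy+6C3-CD105+ with CD105, Thy+6C3-CD105- without), 2 that carry 6C3 (Thy-6C3+CD105+ with, Thy-6C3+CD105- without) and 2 that carry neither (Thy-6C3-CD105+ with, Thy-6C3-CD105- without). The remaining array was labelled as adult Thy+6C3+CD105+ cells. Its source field names sternum and ear while its tissue field names limbs, and with 1 array it entered no test. Populations are compared when 1 antigen differs, as antigen-positive minus antigen-negative cells, and Thy+6C3- cells are also compared with Thy-6C3+ cells. Levels are log2 array signals after quantile normalization, which sets all arrays to 1 distribution, and a change of 1 is a doubling. Changes carry the standard error (SE) of the limma fit over 18 arrays, and p values were adjusted by Benjamini-Hochberg over the 18193 genes, with 0.05 as the threshold. Nothing in the labels says whether the 3 arrays of a population came from separate litters, so the p values measure the spread between these arrays, which may be technical.

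Genes of the sorted antigens matched the population names for Thy and 6C3. Thy1 averaged 10.34 and 10.23 in the Thy+ populations and 5.37 to 5.81 in the others. Enpep, which encodes 6C3, averaged 10.84 and 10.97 in the 6C3+ populations and 7.27 to 8.32 in the others. Eng, which encodes CD105, averaged 8.49, 8.49 and 8.64 in the CD105+ populations and 7.90, 7.23 and 7.20 in the CD105- populations. Replicate 3 of Thy+6C3-CD105- cells went against its label with an Eng level of 8.58, and it had the lowest spread of deposited values of all neonatal arrays. Replicate 2 of Thy-6C3+CD105- cells had the highest deposited median, 6.02. The titles of replicates 2 and 3 of that population say Thy+, against the population field, and their Thy1 levels of 5.78 and 5.95 lay with the Thy- arrays. Leaving out 1 of these arrays ended some calls, brought some or moved a stated difference strongly. The value without the array, or a range over several such refits, is then given beside the result.

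A synovial joint works because its cartilage surface is coated by lubricin, the secreted glycoprotein that Prg4 encodes, and bathed in hyaluronan, a long sugar polymer made at the cell membrane by synthases such as Has2 and bound at the cell surface by Cd44. Cilp encodes cartilage intermediate layer protein, a matrix protein of articular cartilage, and Clu encodes clusterin, a secreted chaperone that articular chondrocytes also make. In the mouse, the ETS transcription factor Erg marks developing joint cells and the chondrocytes of the future joint surface, and it is also a factor of endothelial cells. The zinc finger factors Osr1 and Osr2 are both expressed in developing mouse joints, where they act redundantly in joint formation, and Osr1 also marks connective tissue cells of the limb.

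The reference table used here held upstream sequences for 3 of the 8 genes, Cilp, Erg and Cd44, and for 3 start sites of Erg. The 250 bases before a start site are shown for 1 gene that fell and 1 that rose in Thy+ cells, and for Erg because its own protein belongs to the ETS family. Of the 3 Erg windows, the printed one is the one that held an ETS core match, while windows 1 and 2 held none and window 2 held a TATANA and a GGAATG match. The printed windows are RefSeq sequences of mouse build GRCm38.p6, read in the direction of the gene, with motif matches in capitals. The Cilp window is chr9:65264930-65265179 on the plus strand, and its capitals are a TATANA match whose first base lies 30 bases before the start.
Cilp: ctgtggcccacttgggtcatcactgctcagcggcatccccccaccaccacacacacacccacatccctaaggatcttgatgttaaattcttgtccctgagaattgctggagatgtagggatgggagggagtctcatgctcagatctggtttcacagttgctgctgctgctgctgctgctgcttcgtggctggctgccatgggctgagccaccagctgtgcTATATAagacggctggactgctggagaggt
The Erg window, before the start site numbered 3, is chr16:95459349-95459598 on the minus strand. Its capitals are a SOX match at 121 bases and an ETS core match at 40 bases before the start, both read on the opposite strand.
Erg: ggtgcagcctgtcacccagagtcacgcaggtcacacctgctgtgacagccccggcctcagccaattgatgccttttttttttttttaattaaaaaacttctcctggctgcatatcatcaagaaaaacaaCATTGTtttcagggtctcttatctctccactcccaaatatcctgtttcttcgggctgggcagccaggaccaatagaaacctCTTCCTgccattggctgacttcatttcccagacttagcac
The Cd44 window is chr2:102901666-102901915 on the minus strand. Its capitals are 3 ETS core matches, at 221, 212 and 56 bases before the start.
Cd44: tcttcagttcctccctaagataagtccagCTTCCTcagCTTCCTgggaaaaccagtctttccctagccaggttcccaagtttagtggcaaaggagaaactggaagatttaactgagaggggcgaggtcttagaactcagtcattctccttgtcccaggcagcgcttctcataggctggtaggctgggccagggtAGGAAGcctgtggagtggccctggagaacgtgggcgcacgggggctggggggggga
The motifs searched on both strands were TATANA, the ETS core AGGAAG, AP-1 as TGANTCA, the cyclic AMP element TGACGTCA, SOX as ACAATG and TEAD as GGAATG. Of the 32851 windows of the same length in that table, 22.6% held TATANA, 29.5% AGGAAG, 10.7% ACAATG, 12.6% GGAATG, 6.75% TGANTCA and 1.55% TGACGTCA. A match describes the letters only.

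The 8 genes fell into a group that was lower and a group that was higher in Thy+6C3- cells. Prg4, Cilp, Clu, Erg and Has2 fell and Cd44, Osr1 and Osr2 rose in the comparison of Thy+6C3-CD105+ with Thy-6C3-CD105+ cells. Among CD105- cells, Prg4, Cilp, Erg and Has2 again fell and Cd44 and Osr1 rose, while Clu and Osr2 did not pass the test. That gives 8 of 8 genes called among CD105+ cells, where 6.66% of all genes passed (4.03% higher, 2.63% lower), and 6 of 8 among CD105- cells, where 18% passed (10.5% higher, 7.45% lower). All 8 also passed the moderated F-test over the 6 populations, which 10.1% of all genes passed. The 8 genes were chosen with earlier results of these data known, so these shares give no test of the set. The median change of the 8 genes was -1.09 among CD105+ cells, beside -0.02 over all genes, and -0.60 among CD105- cells, beside 0.13 over all genes. In the CD105- comparison the median of all genes moved with the scaling, to 0.09 for values as deposited and -0.05 with only the array medians set equal. Arrays of the 2 groups did not overlap for 8 of the 8 genes among CD105+ cells, where 26.2% of all genes did not, and for 6 among CD105- cells, where 34.7% did not. Neither the Thy nor the 6C3 change of any of the 8 genes differed between CD105+ and CD105- cells past the threshold, as 0.269% and 0 of all genes did, and 2 and 0 of the 8 had an unadjusted p under 0.05, beside 16.7% and 2.98% of all genes (limma).

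Prg4 had the highest level of the 8 genes, with a mean of 12.65 that exceeded 99.4% of all genes. On the 3 arrays each, it measured 10.65, 11.45 and 11.36 in Thy+6C3-CD105+ cells, against 13.68, 13.44 and 13.76 in Thy-6C3-CD105+ cells. Among CD105- cells it measured 10.70, 10.86 and 10.22 in Thy+6C3- cells, against 13.37, 12.91 and 13.65 in Thy-6C3- cells. Every Thy+ array lay more than 1 log2 unit below every Thy-6C3- array. The changes of -2.47 ± 0.32 and -2.72 ± 0.32 (SE) are 5.55-fold and 6.58-fold lower levels (limma adjusted p = 5.47e-05 and 2.07e-05). In Thy-6C3+ cells Prg4 measured 14.11, 14.11 and 13.78 with CD105 and 13.55, 12.24 and 13.82 without it. The low value of 12.24 is that of replicate 2 of Thy-6C3+CD105- cells, the array with the highest deposited median.

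Cilp showed the same split. It measured 8.67, 8.68 and 8.82 in Thy+6C3-CD105+ cells, against 10.22, 10.01 and 10.23 in Thy-6C3-CD105+ cells. Without CD105 it measured 9.21, 8.97 and 8.66 in Thy+6C3- cells, against 10.36, 9.94 and 10.20 in Thy-6C3- cells. Neither pair of groups overlapped, and the changes were -1.43 ± 0.23 (2.69-fold lower, adjusted p = 0.00046) and -1.22 ± 0.23 (2.33-fold lower, adjusted p = 0.00165). In Thy-6C3+ cells Cilp measured 10.80, 10.83 and 10.12 with CD105 and 10.54, 11.29 and 11.15 without it. The population with the highest mean was thus Thy-6C3+CD105-, at 10.99 ± 0.40 (SD, n = 3), a mean 0.41 above that of Thy-6C3+CD105+ cells whose arrays it overlapped.

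Clu was high everywhere and moved less. It measured 10.41, 10.80 and 10.78 in Thy+6C3-CD105+ cells, against 11.89, 11.52 and 11.76 in Thy-6C3-CD105+ cells. The groups did not overlap, and the change was -1.06 ± 0.18 (2.09-fold lower, adjusted p = 0.000785). Among CD105- cells it measured 11.05, 11.25 and 11.39 in Thy+6C3- cells, against 11.48, 11.33 and 11.86 in Thy-6C3- cells. These overlapped and differed by -0.33 ± 0.18 (95% interval -0.71 to 0.05, adjusted p = 0.197). That difference passed the test without quantile normalization (-0.68, adjusted p = 0.0272) and with only the array medians set equal (-0.82, adjusted p = 0.0217). In Thy-6C3+ cells Clu measured 12.33, 12.11 and 11.91 with CD105 and 12.13, 11.86 and 12.26 without it, all above the Thy+ arrays. The Thy change of Clu differed between CD105+ and CD105- cells by -0.73 ± 0.25, which did not pass over all genes (adjusted p = 0.233).

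Erg, the ETS factor of the joint surface, was lowest in Thy+ cells. It measured 8.24, 8.37 and 7.96 in Thy+6C3-CD105+ cells, against 9.65, 8.94 and 9.32 in Thy-6C3-CD105+ cells. Among CD105- cells it measured 8.12, 8.05 and 7.79 in Thy+6C3- cells, against 9.06, 8.85 and 8.66 in Thy-6C3- cells. Neither pair overlapped, and Erg fell by 1.11 ± 0.22 (2.16-fold, adjusted p = 0.00277) and by 0.87 ± 0.22 (1.83-fold, adjusted p = 0.0122). The second call was lost when replicate 1 of Thy-6C3-CD105- cells was left out (-0.77, adjusted p = 0.0516), when the 2 populations were fitted alone (adjusted p = 0.076) and when both Erg probe sets were averaged (-0.35, adjusted p = 0.168). That average fell by 0.72 among CD105+ cells (adjusted p = 0.0203). In Thy-6C3+ cells Erg measured 9.76, 9.63 and 9.38 with CD105 and 9.54, 9.01 and 9.53 without it, also above every Thy+ array. Since Erg is also an endothelial factor, the 10 endothelial markers were read beside it. Their mean level was 5.81 to 6.10 in Thy+6C3-CD105+ cells, against 5.30 to 5.69 in Thy-6C3-CD105+ cells. Without CD105 it was 5.83 to 5.90 in Thy+6C3- cells, against 5.23 to 5.46 in Thy-6C3- cells. With 6.66% and 18% of all genes called, 3 of the 10 markers rose among CD105+ cells, 2 rose among CD105- cells and none fell. Those that rose were Esam (2.32 among CD105+ cells), Sox18 (1.43 and 1.57) and Tek, which encodes the Tie2 of the sort (1.11 and 1.51). Tek averaged 5.96 and 6.39 in Thy+6C3- cells, against 4.84 and 4.87 in Thy-6C3- cells with and without CD105, all under the median gene mean of 6.76. In any population at most 3 of the 10 endothelial markers lay above that mean, and their part in the Erg change was not tested.

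Has2, the hyaluronan synthase, fell in both Thy comparisons. It measured 6.75, 6.89 and 6.89 in Thy+6C3-CD105+ cells, against 8.41, 7.72 and 8.67 in Thy-6C3-CD105+ cells. Without CD105 it measured 6.03, 6.23 and 6.20 in Thy+6C3- cells, against 8.20, 7.50 and 8.45 in Thy-6C3- cells. No arrays overlapped in either pair on this probe set. The changes were -1.43 ± 0.32 (2.69-fold lower, adjusted p = 0.009) and -1.90 ± 0.32 (3.72-fold lower, adjusted p = 0.000724), and leaving out replicate 3 of Thy-6C3-CD105+ cells took the CD105+ change to -1.22 (adjusted p = 0.0641). The means of Thy-6C3+ cells lay between, from arrays at 7.43, 7.37 and 6.52 with CD105 and 6.94, 8.01 and 7.68 without it. With CD105 these overlapped the Thy+6C3- arrays and not the Thy-6C3- arrays, and without CD105 the reverse held. The other Has2 probe set differed here. Its Thy-6C3+CD105+ arrays, at 7.10 to 7.82, overlapped the Thy-6C3-CD105+ arrays at 7.04 to 8.36. The Thy+6C3-CD105+ arrays of that probe set, at 6.30 to 7.11, overlapped these Thy-6C3-CD105+ arrays as well. On the probe set read for Has2, the 3 arrays of a Thy- population differed among themselves more (SD 0.49 to 0.55) than those of a Thy+ population (SD 0.08 and 0.11). On the other probe set the SDs were 0.44 and 0.40 in Thy+6C3- cells with and without CD105. They were 0.76 and 0.57 in Thy-6C3- cells and 0.36 and 0.27 in Thy-6C3+ cells.

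Cd44, the hyaluronan receptor, went the other way from Has2. It measured 11.21, 11.32 and 11.65 in Thy+6C3-CD105+ cells, against 10.05, 9.87 and 9.61 in Thy-6C3-CD105+ cells. Among CD105- cells it measured 11.15, 11.07 and 10.45 in Thy+6C3- cells, against 9.78, 9.70 and 8.23 in Thy-6C3- cells. The groups did not overlap on the probe set read for the gene. Cd44 rose by 1.55 ± 0.34 (2.93-fold, adjusted p = 0.00804) and by 1.65 ± 0.34 (3.14-fold, adjusted p = 0.00377). With only the array medians set equal, the CD105- difference was 1.08 (adjusted p = 0.0575), and averaging the 4 probe sets gave 0.90 (adjusted p = 0.00143). Thy-6C3+ cells measured 10.74, 10.91 and 10.88 with CD105 and 10.89, 9.81 and 10.65 without it. The array at 9.81 is again replicate 2 of Thy-6C3+CD105- cells, and the array at 8.23, replicate 3 of Thy-6C3-CD105- cells, stood 1 log2 unit or more below its 2 companions.

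Osr1 rose in Thy+ cells at a middling level. It measured 7.61, 7.77 and 7.51 in Thy+6C3-CD105+ cells, against 6.42, 6.15 and 5.84 in Thy-6C3-CD105+ cells. Without CD105 it measured 7.22, 7.48 and 7.37 in Thy+6C3- cells, against 6.26, 6.16 and 6.07 in Thy-6C3- cells. The groups were apart in both pairs, with changes of 1.49 ± 0.23 (2.82-fold higher, adjusted p = 0.000336) and 1.19 ± 0.23 (2.29-fold higher, adjusted p = 0.00218). In Thy-6C3+ cells the levels were 6.75, 6.62 and 6.73 with CD105 and 7.38, 6.77 and 6.33 without it.

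Osr2 was highest in Thy+6C3-CD105+ cells. It measured 6.84, 6.94 and 6.97 there, against 5.94, 5.56 and 5.14 in Thy-6C3-CD105+ cells. The arrays did not overlap, and Osr2 rose by 1.37 ± 0.30 (2.59-fold, adjusted p = 0.00702). Leaving out replicate 3 of Thy-6C3-CD105+ cells took this to 1.17 (adjusted p = 0.0513), and the other Osr2 probe set gave 0.08 (adjusted p = 0.906), so the call rests on 1 probe set. Among CD105- cells it measured 5.50, 5.51 and 5.57 in Thy+6C3- cells, against 5.13, 5.32 and 5.67 in Thy-6C3- cells. These overlapped and differed by 0.15 ± 0.30 (95% interval -0.47 to 0.78, adjusted p = 0.737). The difference between the Thy changes of CD105+ and CD105- cells was 1.22 ± 0.42 and did not pass over all genes (adjusted p = 0.233). In Thy-6C3+ cells it measured 5.84, 6.16 and 6.44 with CD105 and 6.45, 4.94 and 5.49 without it, the widest spread of the 6 populations being in the second. Osr2 had the lowest mean of the 8, 5.86, below the median gene mean.

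These populations are mixtures sorted on surface antigens, so fewer cells of a type and less RNA per cell cannot be told apart. Markers of other cell types moved with the Thy comparisons, which 6.66% of all genes passed among CD105+ and 18% among CD105- cells. All 10 chondrocyte markers fell in both, and their mean level was 9.45 to 9.87 in Thy+6C3-CD105+ cells, against 12.30 to 12.36 in Thy-6C3-CD105+ cells. Of 8 connective tissue fibroblast markers 6 rose in each, and their mean level was 11.01 to 11.25 in Thy+6C3-CD105+ cells, against 9.82 to 9.99 in Thy-6C3-CD105+ cells. Of 8 pericyte and smooth muscle markers 6 rose and 1 fell among CD105+ cells, and 3 rose and 2 fell among CD105- cells. Their mean level was 9.68 to 9.86 in Thy+6C3-CD105+ cells, beside 7.67 to 8.35 in the other 5 populations. Keratinocyte markers were highest in Thy+6C3-CD105- cells, at 6.44 to 7.04, and at most 5.97 elsewhere. Their part in the changes of the 8 genes was not tested. Tendon markers (3 of 7 rose, 1 fell), osteoblast markers (none rose, 2 of 5 fell among CD105+ and 4 among CD105- cells) and myeloid markers (none of 9 changed among CD105+ cells, 3 rose among CD105- cells) moved as well. None of the 6 muscle and 2 erythroid markers changed, with mean levels of at most 5.26.

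**Figure D1:**
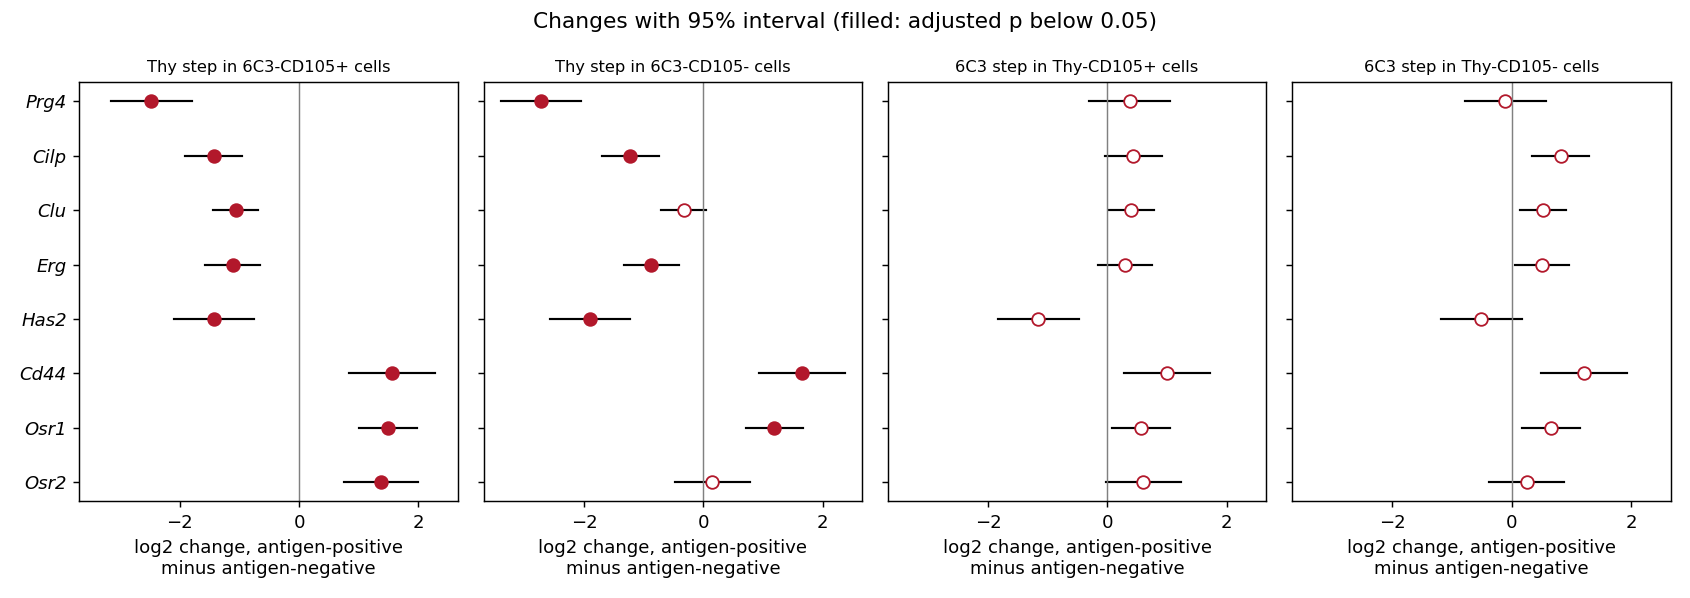
Log2 change of each gene, antigen-positive minus antigen-negative cells (horizontal axis), with the unadjusted 95% interval of the fit as bars; filled points passed the adjusted test. All 8 points are filled in the Thy comparison of CD105+ cells and 6 in that of CD105- cells, while no point is filled in either 6C3 comparison.

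The 6C3 comparisons gave smaller changes, and none of the 8 genes passed the test. Among CD105+ cells 1.36% of all genes passed and among CD105- cells 2.74% (limma), and at an unadjusted p under 0.05 there were 4 and 5 of the 8, beside 7.61% and 13.9% of all genes. Prg4, which fell so far in Thy+ cells, differed by 0.37 ± 0.32 (95% interval -0.30 to 1.04) in Thy-6C3+ against Thy-6C3- cells with CD105. Without CD105 the difference was -0.11 ± 0.32 (95% interval -0.78 to 0.57), and it turned to 0.38 (adjusted p = 0.50) when replicate 2 of Thy-6C3+CD105- cells was left out. Arrays of the 2 groups did not overlap for 5 genes among CD105+ cells, where 16.3% of all genes did not, and for 3 genes among CD105- cells, where 17.6% did not.

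Cd44, Cilp, Has2 and Osr1 passed in a 6C3 comparison under some settings. Cd44 stood 1.0 ± 0.34 higher in Thy-6C3+ than in Thy-6C3- cells with CD105 (adjusted p = 0.269) and 1.21 ± 0.34 higher without it (adjusted p = 0.0723). Leaving out replicate 2 of Thy-6C3+CD105- cells took that second difference to 1.53 (adjusted p = 0.0266). Cilp stood 0.82 ± 0.23 higher in Thy-6C3+CD105- than in Thy-6C3-CD105- cells (adjusted p = 0.0641), which passed without replicate 3 of Thy+6C3-CD105- cells (adjusted p = 0.0344), as the Cd44 difference did (adjusted p = 0.0468). Has2 was 1.16 ± 0.32 lower in Thy-6C3+CD105+ than in Thy-6C3-CD105+ cells (adjusted p = 0.107) and passed with the level of the spiked poly-A controls as a block (adjusted p = 0.0193). Osr1 was 0.66 ± 0.23 higher in Thy-6C3+CD105- than in Thy-6C3-CD105- cells (adjusted p = 0.173) and passed without replicate 3 of Thy-6C3+CD105- cells (0.91, adjusted p = 0.0462).

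In the direct comparison of Thy+6C3- with Thy-6C3+ cells, 5 genes passed among CD105+ and 5 among CD105- cells, where 2.59% and 2.24% of all genes passed. These comparisons share the Thy+6C3- arrays with the Thy comparisons and the Thy-6C3+ arrays with the 6C3 comparisons. Prg4 was 7.18-fold and 6.11-fold lower in Thy+6C3- than in Thy-6C3+ cells, with changes of -2.84 ± 0.32 (adjusted p = 3.09e-05) and -2.61 ± 0.32 (adjusted p = 0.000164). Cilp changed by -1.86 ± 0.23 and -2.04 ± 0.23 (adjusted p = 6.89e-05 and 6.23e-05), and Erg by -1.40 ± 0.22 and -1.38 ± 0.22 (adjusted p = 0.000727 and 0.0014). Clu fell by 1.46 ± 0.18 among CD105+ cells (adjusted p = 7.22e-05) and by 0.85 ± 0.18 among CD105- cells (adjusted p = 0.0147). The CD105- call of Clu was lost in 3 refits, among them the fit without replicate 3 of Thy-6C3+CD105- cells (adjusted p = 0.0539). With these 2 populations fitted alone, the CD105- calls of Clu and Erg were lost (adjusted p = 0.196 and 0.109).

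Has2 and Osr1 each passed in 1 of the 2 direct comparisons. Has2 fell by 1.39 ± 0.32 in Thy+6C3-CD105- against Thy-6C3+CD105- cells (adjusted p = 0.0275), and differed by -0.27 ± 0.32 among CD105+ cells (95% interval -0.94 to 0.41). The Has2 call was lost under 5 settings that changed scaling, probe sets, weights, the populations fitted or the grouping (by title, which leaves 1 array in Thy-6C3+CD105-), and without both arrays in doubt, with adjusted p between 0.0528 and 0.649, and when any 1 of 4 arrays was left out (adjusted p from 0.0587 to 0.162). These arrays were replicates 1 and 3 of Thy+6C3-CD105- and replicates 2 and 3 of Thy-6C3+CD105- cells. Osr1 rose by 0.93 ± 0.23 in Thy+6C3-CD105+ against Thy-6C3+CD105+ cells (adjusted p = 0.0361). The Osr1 call was lost in 9 refits. Of these, 8 were among the 18 fits that left out 1 array (adjusted p from 0.0505 to 0.177), and they held all 6 that left out an array of the compared populations. Cd44 and Osr2 did not pass, with differences of 0.55 ± 0.34 and 0.77 ± 0.30 among CD105+ cells and 0.44 ± 0.34 and -0.10 ± 0.30 among CD105- cells (0.12 and -0.44 without replicate 2 of Thy-6C3+CD105- cells).

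CD105 itself went with few changes in these genes. Osr2 alone passed, in Thy+6C3- cells, where 1.02% of all genes passed: it rose by 1.39 ± 0.30 in Thy+6C3-CD105+ against Thy+6C3-CD105- cells (2.62-fold, adjusted p = 0.0301), and the 6.84 to 6.97 of the 3 CD105+ arrays did not overlap the 5.50 to 5.57 of the 3 CD105- arrays. In that comparison 5 of the 8 genes had arrays that did not overlap, beside 24.8% of all genes. The call was lost when any 1 of 5 arrays was left out, that is, each of these 2 populations' arrays except replicate 1 of Thy+6C3-CD105- cells (adjusted p from 0.0585 to 0.145). Averaging both Osr2 probe sets gave 0.63 (adjusted p = 0.107), and the other probe set alone gave -0.13 (adjusted p = 0.621). Markers of several cell types moved in the same comparison. Of pericyte and smooth muscle markers 4 of 8 were higher, and of keratinocyte markers 3 of 6 were lower. Of myeloid markers 1 of 9 was lower, and 1 of 10 was higher on each of the endothelial and chondrocyte lists. The remaining marker lists had none called. The part of these markers in the Osr2 change was not tested. In Thy-6C3- and Thy-6C3+ cells none of the 8 genes passed, where 1 gene (0.0055%) and 0 of all genes passed by limma, and 0 and 1 of the 8 had an unadjusted p under 0.05, beside 1.75% and 2.74% of all genes. That 1 was Prg4, 0.79 ± 0.32 higher in Thy-6C3+CD105+ than in Thy-6C3+CD105- cells (adjusted p = 1), groups that overlapped. Without replicate 2 of Thy-6C3+CD105- cells the difference was 0.31.

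The order of the population means differed between the genes. For Prg4 it ran from Thy-6C3+CD105+ (14.00 ± 0.19, SD, n = 3) through Thy-6C3-CD105+ cells (13.63 ± 0.17), then Thy-6C3-CD105- cells (13.31 ± 0.37), then Thy-6C3+CD105- cells (13.21 ± 0.85), to Thy+6C3-CD105+ (11.16 ± 0.44) and lastly Thy+6C3-CD105- cells (10.59 ± 0.33). Arrays of neighbours in this order overlapped except for the first pair and for the gap of 2.05 between Thy- and Thy+ populations. Cilp and Erg also had a gap without overlap at the Thy border, of 1.20 and 0.67, and neighbouring populations on either side of it overlapped. Clu had its gap of 0.57 elsewhere, between Thy+6C3-CD105- (11.23 ± 0.17) and Thy+6C3-CD105+ (10.66 ± 0.22). Has2 was highest in Thy-6C3-CD105+ cells (8.27 ± 0.49) and Cd44 lowest in Thy-6C3-CD105- cells (9.24 ± 0.87). Osr1 ran from Thy+6C3-CD105+ (7.63 ± 0.13) down to Thy-6C3-CD105+ (6.14 ± 0.29), with the 6C3+ populations at 6.83 and 6.70 between. Osr2 ran from Thy+6C3-CD105+ (6.92 ± 0.07) over Thy-6C3+CD105+ (6.15 ± 0.30) to Thy-6C3-CD105- (5.37 ± 0.27), and the last 5 populations overlapped their neighbours.

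The adult array, a single one with no test, lay outside the neonatal range for 5 of the 8 genes. Clu was 13.95 on it, above the highest neonatal array at 12.33, and Osr1 was 8.15, above 7.77. Cilp was 5.45, below the lowest neonatal array at 8.66, Cd44 was 7.91, below 8.23, and Osr2 was 3.78, below 4.94. Prg4 (12.39), Has2 (8.23) and Erg (8.65) lay within the neonatal range. Age, tissue and sorted phenotype cannot be told apart in this array.

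Other probe sets of the genes bore on how firm the levels are. The 4 probe sets of Clu moved together, with Thy changes of -0.95 to -1.18 among CD105+ cells and -0.23 to -0.57 among CD105- cells. For Cd44 the second probe set, at a mean level of 10.24, rose by 1.75 with CD105 (adjusted p = 0.00133 over all probe sets) and by 0.93 without it (adjusted p = 0.0467), while a probe set with a mean of 3.71 lay near the low end of the array. For Has2 the other probe set differed by -1.11 (adjusted p = 0.125) and -1.75 (adjusted p = 0.0058). Erg and Osr2 rested on 1 probe set each. The second Erg probe set, with a mean of 6.14, had Thy changes of -0.33 and 0.16, and the second for Osr2, with a mean of 4.33, had changes of 0.08 and 0.12. Prg4, Cilp and Osr1 had 1 probe set each.

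**Figure D2:**
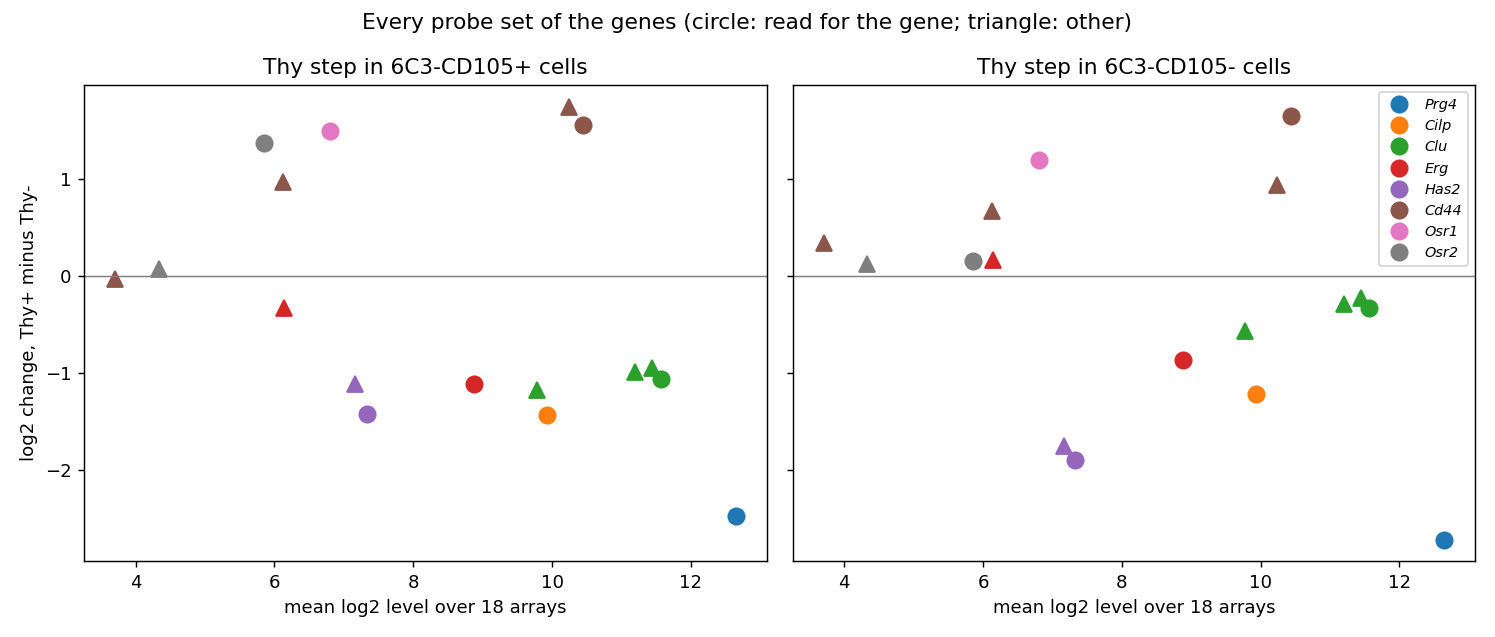
Thy change of each of the 17 probe sets, Thy+ minus Thy- cells on the log2 scale (vertical axis), against its mean log2 level over 18 arrays (horizontal axis); circles were read for the gene, triangles were not. The 4 Clu probe sets lie together, while the lower probe sets of Erg and Osr2 lie near 0.

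Across the 18 neonatal arrays, the 5 genes that were lower in Thy+ cells did not all vary together. Pearson correlations describe this without a test, since the points share populations, sorts and amplification. Prg4 and Erg had r = 0.92, Cilp and Clu 0.87, Cilp and Erg 0.86, and Prg4 and Cilp 0.83. Has2 had r = 0.69 to Prg4 and 0.57 to Erg, with r = -0.80 to Osr1 and -0.75 to Cd44. Osr1 and Cd44 had r = 0.79, and Osr1 and Osr2 0.64. With each population's mean taken off, the correlations were 0.52 for Prg4 and Erg, 0.14 for Cilp and Clu, 0.19 for Cilp and Erg and 0.09 for Prg4 and Cilp, all lower than over all arrays. Prg4 and Clu had 0.66 within populations (0.81 over all arrays), Cilp and Has2 0.78 (0.63) and Osr1 and Osr2 0.60.

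For each gene the 3 genes of most similar pattern were taken from the 9096 other genes above the median level, by r over the 18 arrays. Prg4 was followed most closely by Mfge8 (0.94), Cytl1 (0.93) and Lgr6 (0.92), and Erg by Lgr6 (0.96), Prg4 (0.92) and Vit (0.91). Lgr6, an R-spondin receptor, averaged 6.90 and 6.38 in the Thy+ populations, 9.50 and 9.50 in the 6C3+ populations and 9.41 and 8.31 in Thy-6C3- cells, each with CD105 and then without. Cilp was followed by Gdf5 (0.94), a growth factor of the joint interzone, Col22a1 (0.93), a collagen of tissue junctions, and Itih2 (0.92), which encodes a protein that binds hyaluronan. Gdf5 averaged 7.10 ± 0.51 and 7.40 ± 0.50 in Thy+ cells, 9.13 ± 0.07 and 9.46 ± 0.29 in 6C3+ cells, and 8.38 ± 0.13 and 8.83 ± 0.05 in Thy-6C3- cells (SD, n = 3 each, in the same order). Clu was followed by Smpdl3a (0.90), Stk38l (0.89) and Cilp (0.87).

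Has2, Cd44, Osr1 and Osr2 had partners of other kinds. Those of Has2 were Ier5 (0.95), Slc30a1 (0.95) and Zfp36 (0.94), of which Ier5 and Zfp36 are immediate early response genes. Zfp36 averaged 10.30 and 9.77 in Thy+ cells and 12.23 and 12.07 in Thy-6C3- cells, with and without CD105. Cd44 was followed by Rbms2 (0.92), Cbr3 (0.91) and Dpt (0.91), the last a matrix gene on the fibroblast marker list. Osr1 was followed by S100a6 (0.96), Fabp5 (0.93) and Jcad (0.93), and Osr2 by Adamts12 (0.88), Zeb2 (0.87) and Lrrc15 (0.85). Zeb2 averaged 9.67 ± 0.47 in Thy+6C3-CD105+ cells and 7.03 ± 1.0 in Thy+6C3-CD105- cells, the comparison in which Osr2 passed.

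Other genes of the joint surface and its formation split in both directions. Their counts stand beside 6.66% and 18% of all genes that passed the Thy comparisons with and without CD105. Of 23 measured joint and articular partners, 5 rose and 8 fell in Thy+6C3-CD105+ against Thy-6C3-CD105+ cells, and 8 rose and 9 fell among CD105- cells, with median changes of -0.19 and -0.39. Those with the largest changes were lower in Thy+ cells: Dcx (-3.41 with and -2.85 without CD105), Vit (-2.91 and -2.70), Cytl1 (-2.88 and -3.24) and Col22a1 (-2.08 and -2.46). Dcx is a microtubule protein known from neurons that also marks articular chondrocytes in the mouse, and Vit encodes vitrin, a matrix protein. In the 6C3 comparisons, which 1.36% and 2.74% of all genes passed, 6 of the 23 rose and none fell, both with and without CD105. The median changes were 0.39 and 0.49. Cilp2, a paralog of Cilp, rose by 1.5 ± 0.31 in both (adjusted p = 0.0195 and 0.0112). Thbs4, a thrombospondin of tendon that also stands on the tendon list, rose by 1.32 and 1.76, and Tppp3, a marker of joint and tendon sheath cells, by 1.15 and 1.34. Chondrocyte markers went the other way there, with 4 of 10 lower among CD105+ and 6 among CD105- cells and median changes of -1.04 and -1.34. In Thy+6C3- against Thy-6C3+ cells 7 partners fell and none rose, both with and without CD105, led by Col22a1 (-3.26 and -3.79) and Vit (-3.30 and -3.43). Over all genes 2.59% and 2.24% passed there.

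**Figure D3:**
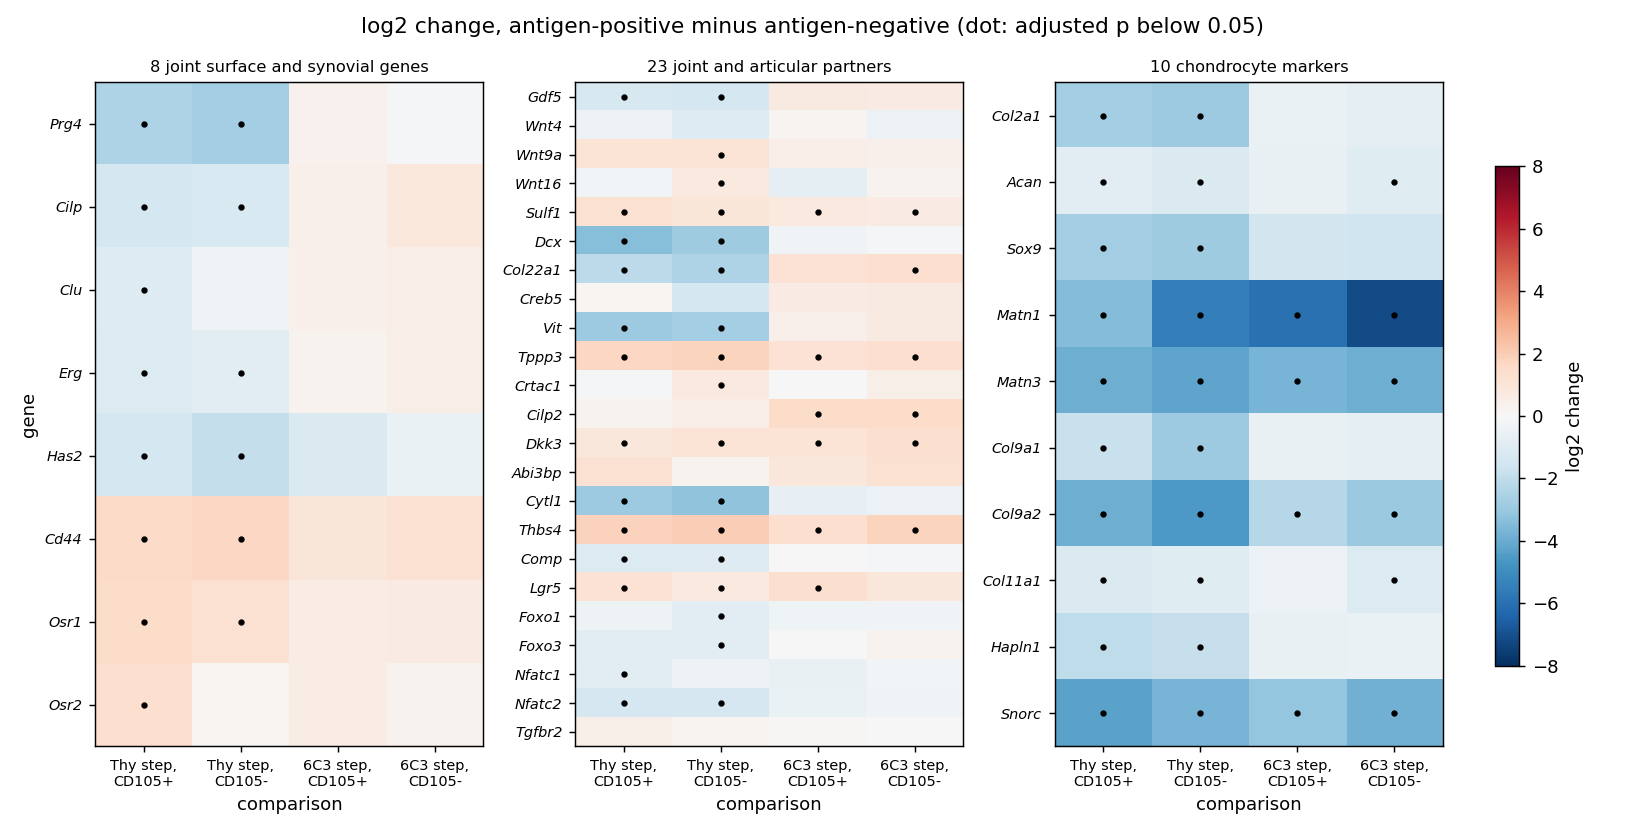
Log2 change, antigen-positive minus antigen-negative cells, as colour (red higher, blue lower) for the 8 genes, 23 joint and articular partners and 10 chondrocyte markers in the Thy and 6C3 comparisons; a dot marks an adjusted p below 0.05. All 10 chondrocyte markers are dotted and blue in both Thy comparisons, and the 6 dotted partners in each 6C3 comparison are red.

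Hyaluronan genes around Has2 and Cd44 had no common direction. Of 20 measured genes of its synthesis, binding and turnover, 3 rose and 3 fell in Thy+6C3-CD105+ against Thy-6C3-CD105+ cells, and 4 rose and 5 fell among CD105- cells. Over all genes 6.66% and 18% passed in these comparisons. Hapln1, which links hyaluronan to aggrecan and is also on the chondrocyte list, fell (-2.01 and -1.82), as did Cemip, which takes part in hyaluronan breakdown (-1.44 and -2.24). Vcan, the hyaluronan-binding proteoglycan versican, rose by 1.13 among CD105+ cells, and Hmmr, a hyaluronan-binding protein of the mitotic spindle, by 1.08 and 1.75. Gfpt1, an enzyme of the precursor pathway, fell by 1.55 among CD105- cells. The other synthases did not pass: Has1 averaged 7.14 and 7.52 in Thy+6C3- cells, against 7.69 and 7.61 in Thy-6C3- cells with and without CD105, and Has3 4.47 and 4.89 against 4.38 and 4.42. In the 6C3 comparisons Itih5, of the same family as Itih2, rose by 1.02 and 1.28, and Hapln3 fell by 0.84 among CD105- cells.

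Genes of the synovial lining and its fibroblasts went both ways in Thy+ cells. Of 18 measured, 6 rose and 1 fell in the Thy comparison of CD105+ cells, and 6 rose and 4 fell in that of CD105- cells. Beside these counts, 6.66% and 18% of all genes passed. Among CD105+ cells the largest changes were in Cd248 (2.29), Dpp4 (2.02), Htra4 (-2.02) and Vcam1 (1.93), and among CD105- cells in Pi16 (2.28), Cd248 (2.25), Htra4 (-1.91) and Pdpn (1.83). Cd248 marks fibroblasts and perivascular cells, Pdpn encodes podoplanin of lining fibroblasts, and Dpp4 and Pi16 are also on the fibroblast marker list. In both 6C3 comparisons, where 1.36% and 2.74% of all genes passed, 1 of the 18 rose, the serine protease gene Htra1, by 0.56 and 0.80.

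Other ETS factors were read beside Erg, and partner genes beside Cd44 and Clu. Their counts stand beside the 6.66% and 18% of all genes that passed the Thy comparisons with and without CD105. Of 16 measured ETS factors none rose and 2 fell in the Thy comparison of CD105+ cells, Etv5 (-1.65) and Ets2 (-0.77). Among CD105- cells 4 fell and none rose: Etv5 (-2.81), Elk3 (-1.18), Ets2 (-1.14) and Ets1 (-1.07). Of 13 Cd44 ligands and partners 2 rose and 1 fell in each Thy comparison. Srgn, the proteoglycan serglycin that Cd44 binds, fell (-1.56 and -1.78), Adam10 rose by 1.0 among CD105+ cells and Ezr, which links Cd44 to the cytoskeleton, by 1.06 among CD105- cells. Of 10 clusterin partners 2 rose and 1 fell among CD105+ cells, and 3 rose and none fell among CD105- cells, with the small heat shock protein gene Cryab higher by 2.05 and 1.51.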

How the data were processed

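The deposited table gives log2 expression levels, which the authors derived from scans of an Affymetrix mouse genome array. Per the labels' protocols, RNA went through repeated amplification before biotin labelling, which can alter relative levels. For the step from scan to value, the software is not given in the sources used. Deposited medians ran from 5.60 to 6.02, so the 19 arrays were quantile normalized. Arrays hold no counts, so 3 arrays per population limit the precision.

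Gene names came from the platform annotation: 34945 probe sets had 1 symbol, 932 several and 9160 none, and 64 were controls. A gene's level is that of its brightest probe set by mean over 18 arrays. Of 185 genes listed as partners, markers or sorted antigens, 15 had no row and were not analysed here. The 8 genes and all lists were chosen with earlier results of these data known.

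The fit (limma 3.58.1, R 4.3.3) had a mean for each population, eBayes with a trend, 9 contrasts and 2 interactions (12 residual degrees of freedom, prior 5.38). Tests were two-sided, and a gene is called at a Benjamini-Hochberg adjusted p under 0.05 over 18193 genes. Arrays were grouped by the population field, and the fit was tested on simulated data. The text names all 8 genes, the 3 genes most like each, and up to 4 called genes of the largest change per list and contrast; Has1, Has3 and the antigen genes were added after their values were seen. The 18 neonatal arrays split into 11 with high and 7 with low poly-A control levels, with both kinds in every population, and all called changes kept their sign within each kind. Within a population, arrays correlated with r of 0.931 to 0.995. Plots used Python 3.11.15 and matplotlib 3.10.9. Upstream sequences are RefSeq's, build GRCm38.p6.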

Additional observations from a re-analysis of the deposited data

How the results depend on the processing

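Of 348 refits of the 25 called changes under other scalings, probe set rules, filters, variance models, weights, blocks, groupings and population choices, 332 kept direction and call, 15 lost the call and 1 reversed. The reversal was Osr2 in the CD105 comparison of Thy+6C3- cells, -0.13 when probe sets that can match several transcripts were left out. Of 450 refits that left out 1 array, 429 kept the call and 21 lost it. The number of the 8 genes called in the 6C3 comparison of CD105- cells, 0, became 1 with probe sets averaged, with genes above the median level alone, with array weights, when grouped by title, and without both arrays in doubt (replicate 2 of Thy-6C3+CD105- and replicate 3 of Thy+6C3-CD105- cells, a setting chosen after seeing the data), and lay between 0 and 2 with 1 array left out. In the 6C3 comparison of CD105+ cells it became 1 with array weights, with the compared populations alone and with the poly-A level as a block, and stayed 0 with any 1 array left out. In the CD105 comparison of Thy+6C3- cells, 1 became 0 with probe sets averaged, with those shared between transcripts left out and with genes above the median level alone, and 2 with array weights, and lay between 0 and 1 with 1 array left out. In Thy+6C3-CD105- against Thy-6C3+CD105- cells, 5 became 2 with those populations alone and 3 when grouped by title, and lay between 3 and 5 with 1 array left out. With array weights 2889 genes passed in the Thy comparison of CD105+ cells, against 1211, and 2567 in the CD105 comparison of Thy+6C3- cells, against 185. A replicate block left the counts of the 8 genes at 8 and 6 in the Thy comparisons. Whether equal replicate numbers mark paired arrays was not settled. The median correlation of deviations was 0.03 over 45 pairs of equal number and 0.01 over 90 pairs of different number, and 8 of 18 arrays were closest to their own number. Grouping by title leaves Thy-6C3+CD105- with 1 array, assumed to vary like the other groups. Genes above the median level do not include Osr2. Signal near background limits Osr2 and the third Cd44 probe set.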
